A study of Mus musculus with 48 samples.

Results

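The core circadian clock genes were examined in livers of male B6C3F1 mice given dichloroacetic acid (DCA), a by-product of water chlorination, in their drinking water. The set was fixed by symbol and holds 10 genes of the 11353 gene names in either of the 2 expression tables. It has 3 activators (Arntl, Clock and Npas2) and 7 repressors (Cry1, Cry2, Per1, Per2, Per3, Nr1d1 and Nr1d2). The table of frozen liver (FROZ) lists 7 of the 10 among 11275 genes, and the table of formalin-fixed, paraffin-embedded liver (FFPE) lists 4 among 6673 genes. Npas2, Per1 and Per2 are in neither table and were not analysed here.

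The mice were 4 weeks old and drank the water for 6 days. The DCA content was 1.0 g/L in the group dosed at 198 mg/kg-d, 2.0 g/L at 313 mg/kg-d and 3.5 g/L at 427 mg/kg-d, and each of these and the vehicle group (dose 0) had 6 animals. Each of the 24 animals gave a FROZ library from mixed lobes and an FFPE library. Per the methods of the study, FROZ tissue was of the right medial and left lateral caudate lobes. FFPE tissue was of the right medial and left lateral lobes. Isolated RNA was used for FROZ and lysed sections for FFPE, so the 2 differ in lobe and preparation as well as preservation. Vehicle animals received water without DCA. TempO-Seq, an assay that ligates and counts a pair of short probes per target transcript, gave 6687000 to 9833000 reads on listed genes in the FROZ libraries and 1828000 to 6026000 in the FFPE libraries, worked out from the CPM of 1 read. Levels are log2(CPM + 1), where CPM is the reads of a gene scaled to a fixed total over the listed genes of that table. All animals are males of 1 hybrid strain and age, so neither sex nor strain varied. The hour of necropsy and the light cycle are not given in the sources used here. A difference in hour between dose groups, if there was one, cannot be told apart from an effect of DCA. A hepatocyte marker list of 5 genes (Alb, Apoa1, Ttr, Ahsg and Cps1) summed to between 19110 and 36460 CPM in every FROZ library, whereas a list of 5 lymphocyte markers summed to at most 22.95 CPM.

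The circadian clock of a hepatocyte is a loop of transcription factors and their inhibitors. ARNTL (also called BMAL1) pairs with CLOCK or NPAS2 and binds E-box elements in the genes of its own repressors. The PER and CRY proteins accumulate and block that pair, and the nuclear receptors NR1D1 and NR1D2 (REV-ERB alpha and beta) compete with the activating ROR receptors at shared response elements in Arntl, Clock, Npas2 and Cry1 and repress them. In mouse liver these transcripts rise and fall over the day in a fixed order, and the loop links liver metabolism to feeding.

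The windows upstream of the repressor genes that changed most with dose are shown because they carry the letters of clock elements. RefSeq promoter windows on build GRCm38.p6 matched 9 of the 10 genes, and each runs from 250 bases before the start of transcription to 50 bases after it. The motifs searched on both strands were the E-box CACGTG, its variant CACGTT, the core AGGTCA of the ROR and REV-ERB element and the D-box TTANNTAA. The 4 lines give the 250 bases before the start, 5′ to 3′ on the strand of the gene, with the matches in capitals. Gene positions given with the results are from GENCODE on mm10, whose start sites can differ from those of RefSeq.
Nr1d1, chr11:98775378-98775627, minus strand: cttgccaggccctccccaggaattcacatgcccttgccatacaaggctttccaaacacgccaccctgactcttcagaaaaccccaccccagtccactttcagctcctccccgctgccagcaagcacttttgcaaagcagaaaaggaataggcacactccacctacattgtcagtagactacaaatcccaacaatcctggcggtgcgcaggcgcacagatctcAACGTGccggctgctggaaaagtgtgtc
Nr1d2, chr14:18239107-18239356, minus strand: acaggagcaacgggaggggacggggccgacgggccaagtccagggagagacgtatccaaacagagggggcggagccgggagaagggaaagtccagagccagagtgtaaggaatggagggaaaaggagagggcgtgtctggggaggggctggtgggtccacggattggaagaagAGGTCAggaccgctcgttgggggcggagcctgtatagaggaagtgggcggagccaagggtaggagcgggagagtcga
Per3, chr4:151044666-151044915, minus strand: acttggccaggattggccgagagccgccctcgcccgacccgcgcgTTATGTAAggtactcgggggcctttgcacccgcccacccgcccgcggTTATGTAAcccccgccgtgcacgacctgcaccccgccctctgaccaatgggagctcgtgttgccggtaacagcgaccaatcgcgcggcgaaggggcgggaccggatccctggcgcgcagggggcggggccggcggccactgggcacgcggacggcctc
Cry1, chr10:85185055-85185304, minus strand: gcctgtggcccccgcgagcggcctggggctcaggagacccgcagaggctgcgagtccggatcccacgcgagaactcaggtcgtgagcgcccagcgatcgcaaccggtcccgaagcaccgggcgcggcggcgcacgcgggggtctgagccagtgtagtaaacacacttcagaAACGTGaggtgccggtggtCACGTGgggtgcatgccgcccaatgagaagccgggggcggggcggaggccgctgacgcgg

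Counted from the start of transcription, Nr1d1 holds the E-box variant at -28 on the opposite strand, and Nr1d2 holds the receptor core at -77. Per3 holds the D-box, the element of Dbp-family factors, at -205 and again at -158. Cry1 holds the E-box at -60 and its variant at -79, and Cry2, not printed, holds the variant at -166. Per1, not printed and in neither expression table, holds the E-box at -166 and the receptor core at -137 on the opposite strand. No matches overlapped one another. Among 27025 windows, 1 per gene, 7.24% held the E-box, 4.77% the variant, 16.0% the receptor core and 6.08% the D-box. The windows of Arntl, Clock and Npas2 held none of the 4 motifs, which says only that these letters are not in the windows searched.

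Nr1d1 and Nr1d2, the REV-ERB repressors, rose at every dose in FROZ. Nr1d1 lies at chr11:98767932-98775333 on the minus strand of mm10. Its level in the vehicle animals ran from 1.17 to 2.32 with a median of 1.56. At 198 mg/kg-d it ran from 2.598 to 3.42 (median 2.84), at 313 mg/kg-d from 3.94 to 4.70 (median 4.24) and at 427 mg/kg-d from 4.59 to 5.25 (median 4.77). No treated animal overlapped the vehicle range at any dose, and each dose group up to 313 mg/kg-d lay entirely above the group below it. The log2 fold change against vehicle was 1.24 ± 0.17 (SE, limma, FDR-adjusted p = 0.000261) at 198 mg/kg-d, 2.598 ± 0.17 (FDR-adjusted p = 6.32e-11) at 313 mg/kg-d and 3.21 ± 0.17 (FDR-adjusted p = 3.91e-13) at 427 mg/kg-d. These correspond to 2.37-, 6.05- and 9.23-fold increases on the log2(CPM + 1) scale, which understates changes of low genes, and Nr1d1 was the 4th most increased of 11275 genes at 198 mg/kg-d. With an offset of 0.1 CPM in place of 1 the fold changes were 2.96, 8.22 and 12.7. The vehicle libraries held 10.01 to 34.9 reads of Nr1d1 and the libraries at 427 mg/kg-d 189 to 328 reads. In bulk liver a change in the number of cells of a type and a change in RNA per cell cannot be told apart.

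Nr1d2 (chr14:18204054-18239127, minus strand) followed the same order of doses. Its level was 3.70 to 4.39 in vehicle animals (median 4.04), 4.43 to 5.26 at 198 mg/kg-d (median 4.96), 5.32 to 6.17 at 313 mg/kg-d (median 5.73) and 5.66 to 6.59 at 427 mg/kg-d (median 6.22). All 6 treated animals exceeded all vehicle animals at each dose. The log2 fold changes were 0.89 ± 0.17 (FDR-adjusted p = 0.00858), 1.70 ± 0.17 (FDR-adjusted p = 7.68e-08) and 2.18 ± 0.17 (FDR-adjusted p = 3.85e-10). The smallest fold change, 1.85-fold at 198 mg/kg-d, was below 2-fold.

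**Figure D1:**
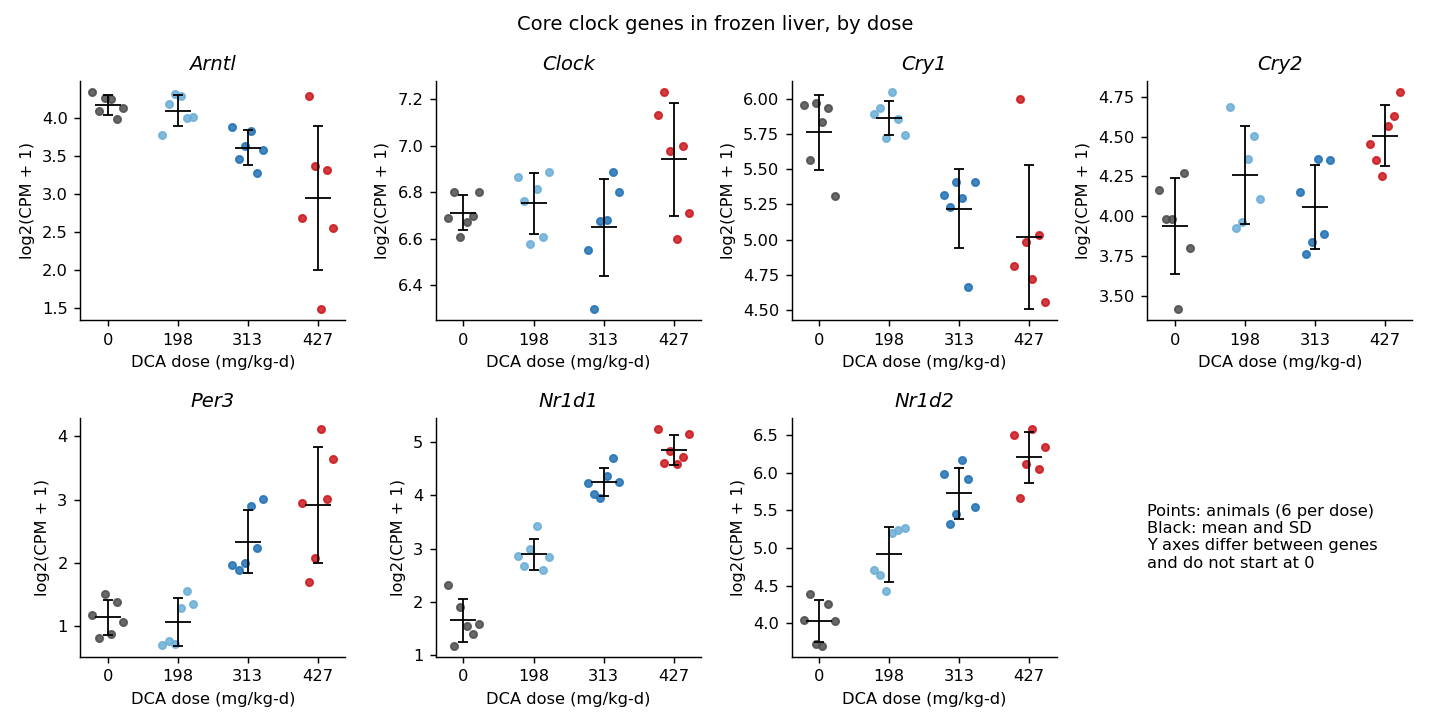
Level of the 7 listed core clock genes in frozen liver as log2(CPM + 1) against DCA dose in mg/kg-d. Points are the 6 animals of a dose, black bars are the mean and SD, and each panel has its own vertical scale that does not start at 0. Nr1d1 steps up at each dose with no overlap with vehicle, and Arntl spreads from 1.48 to 4.29 at 427 mg/kg-d.

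Of the 7 genes in FROZ, 2 changed at the low dose, 4 at the middle dose and 6 at the top dose (limma, FDR-adjusted p under 0.05 over all genes of the table). The share of all genes that changed was 1.56%, 26.7% and 30.1% at these doses. With a fold change above 2 as well, the counts were 1, 3 and 4 of 7, against 0.106%, 2.31% and 3.5% of all genes. The genes with no overlap between treated and vehicle animals numbered 2, 4 and 3 of 7, where 1.89%, 11.5% and 14.7% of all genes had none. The median log2 fold change of the 7 genes was 0.10, 0.12 and 0.57, and that of all genes 0.07, 0.11 and 0.10. Scaling the libraries by their median ratio moved the median of all genes to -0.00301, -0.00438 and -0.00688, and the share of called genes that rose at 313 mg/kg-d went from 77.0% to 48.7%. Under that scaling 2, 5 and 6 of the 7 genes changed, against 1.1%, 21.1% and 25.2% of all genes, and at 313 mg/kg-d 3 rose and 2 fell in place of 3 and 1.

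Per3 was the only PER gene listed, and it rose at the upper doses. PER3 belongs to the repressor complex but is less essential to rhythm than its relatives. Its level ran from 0.81 to 1.51 in vehicle animals (median 1.13), from 0.71 to 1.56 at 198 mg/kg-d (median 1.03), from 1.89 to 3.01 at 313 mg/kg-d (median 2.12) and from 1.70 to 4.12 at 427 mg/kg-d (median 2.98). The low-dose group overlapped the vehicle group, and both higher groups lay above it. The log2 fold change was -0.07 ± 0.30 at 198 mg/kg-d (FDR-adjusted p = 0.933), 1.19 ± 0.30 at 313 mg/kg-d (FDR-adjusted p = 0.00371) and 1.77 ± 0.30 at 427 mg/kg-d (FDR-adjusted p = 4.02e-05). Few reads lie behind Per3, with 6.01 to 17.0 reads per vehicle library and 19.95 to 137 at 427 mg/kg-d, and an offset of 0.1 CPM gave 5.03-fold at 427 mg/kg-d where the offset of 1 gave 3.42-fold. Per3 is at chr4:151003652-151044665 on the minus strand.

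The cryptochromes moved in opposite directions at the top dose. Cry1 (chr10:85131700-85185064, minus strand), whose product is a strong inhibitor of the CLOCK-ARNTL pair, had levels of 5.31 to 5.97 in vehicle animals (median 5.88) and 5.72 to 6.05 at 198 mg/kg-d (median 5.87). The range was 4.66 to 5.41 at 313 mg/kg-d (median 5.30) and 4.56 to 6.00 at 427 mg/kg-d (median 4.90). At 427 mg/kg-d 5 of 6 animals were below every vehicle animal, and the remaining animal was above every vehicle animal. Cry1 fell by 0.54 ± 0.17 on the log2 scale at 313 mg/kg-d (FDR-adjusted p = 0.0201) and fell by 0.74 ± 0.17 at 427 mg/kg-d (FDR-adjusted p = 0.00151). Without animal 77, the lowest of the 313 mg/kg-d group at 4.66, the change at 313 mg/kg-d was -0.43 and no longer passed (FDR-adjusted p = 0.0606).

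Cry2 (chr2:92403646-92434043, minus strand), the second cryptochrome, rose only at the top dose by this test. Its vehicle range was 3.42 to 4.27 (median 3.98), with 3.93 to 4.69 at 198 mg/kg-d and 3.77 to 4.36 at 313 mg/kg-d, and its range at 427 mg/kg-d was 4.25 to 4.78 (median 4.51), with 5 of 6 treated animals above all vehicle animals. The log2 fold change was 0.57 ± 0.15 (FDR-adjusted p = 0.00456) at 427 mg/kg-d, and 0.32 ± 0.15 (FDR-adjusted p = 0.269) and 0.12 ± 0.15 (FDR-adjusted p = 0.592) at 198 and 313 mg/kg-d. The value at 313 mg/kg-d turned to -0.010 under median-ratio scaling.

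Of the activators, Arntl fell and Clock did not pass the test at any dose. Arntl (chr7:113207465-113314126, plus strand) had levels of 3.98 to 4.35 in vehicle animals (median 4.20), 3.78 to 4.32 at 198 mg/kg-d (median 4.10), 3.28 to 3.89 at 313 mg/kg-d (median 3.603) and 1.48 to 4.29 at 427 mg/kg-d (median 3.00). All 6 animals at 313 mg/kg-d were below all vehicle animals, yet the change of -0.57 ± 0.26 did not pass (FDR-adjusted p = 0.109), and it did under median-ratio scaling (-0.70, FDR-adjusted p = 0.0485). At 427 mg/kg-d Arntl fell by 1.23 ± 0.26 on the log2 scale (FDR-adjusted p = 0.000639), a 2.35-fold decrease, with 5 of 6 animals below the vehicle range. The test uses 1 estimate of spread for the 4 dose groups, and the SD of Arntl was 0.13 in vehicle animals, 0.21 and 0.23 at the middle doses and 0.95 at 427 mg/kg-d. Without animal 98 or without animal 100, both of the 427 mg/kg-d group, the decrease at 313 mg/kg-d passed the test at the same -0.57 (FDR-adjusted p = 0.0418 and 0.0296). It passed in 4 of 31 alternative fits, over which the limma FDR-adjusted p ran from 0.00211 to 0.188.

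Clock (chr5:76209868-76304792, minus strand) encodes the partner of ARNTL. Its vehicle range of 6.61 to 6.80 (median 6.69) was narrow, and the ranges at 198, 313 and 427 mg/kg-d were 6.58 to 6.89, 6.29 to 6.89 and 6.60 to 7.23, all overlapping it. The log2 fold changes of Clock were 0.04, -0.06 and 0.23, each with an SE of 0.10 (FDR-adjusted p = 0.889, 0.699 and 0.0866). The 95% interval at 427 mg/kg-d reached from 0.02 to 0.44. Without animal 100 the change at 427 mg/kg-d was 0.30 and without animal 102 it was 0.28, and both passed the test (FDR-adjusted p = 0.0234 and 0.0486). With median-ratio scaling it was 0.086 (FDR-adjusted p = 0.605).

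**Figure D2:**
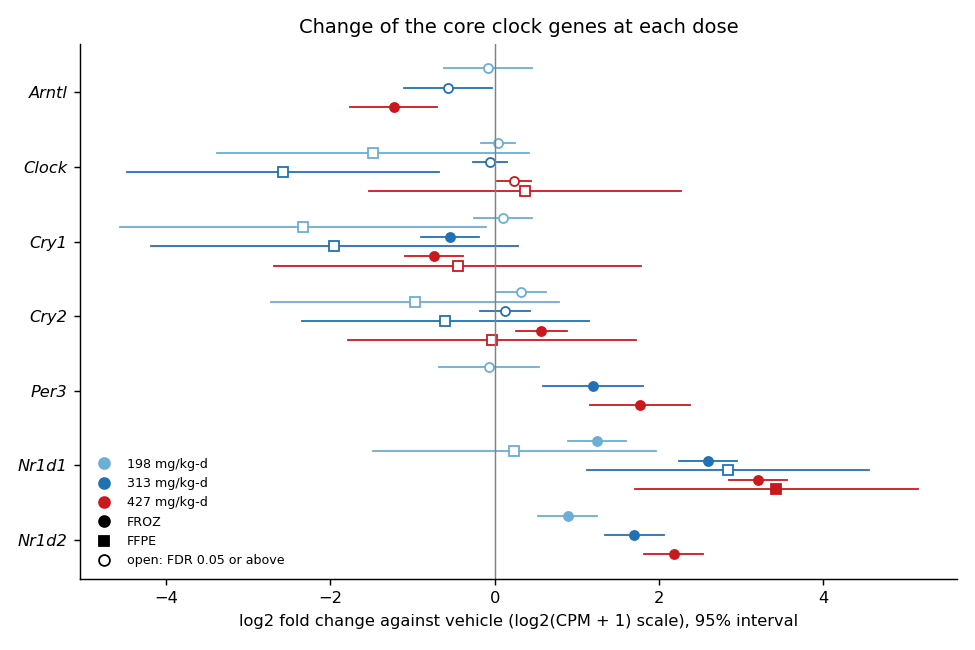
Log2 fold change against vehicle with its 95% interval (limma, log2(CPM + 1) scale) for each core clock gene, colored by dose, with circles for FROZ and squares for FFPE and filled symbols where the FDR-adjusted p was under 0.05. Nr1d1, Nr1d2 and Per3 lie to the right at 313 and 427 mg/kg-d, Arntl and Cry1 lie to the left, and the FFPE intervals are several times as wide as the FROZ intervals.

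Of the steps between neighboring doses, that from 198 to 313 mg/kg-d passed for the most genes. In that step 4 of 7 changed, against 11.7% of all genes. Nr1d1 rose by a further 1.35 ± 0.17 (FDR-adjusted p = 6.96e-06), Nr1d2 by 0.81 ± 0.17 (FDR-adjusted p = 0.00257) and Per3 by 1.27 ± 0.30 (FDR-adjusted p = 0.00524), and Cry1 fell by 0.64 ± 0.17 (FDR-adjusted p = 0.0136) with all 6 animals at 313 mg/kg-d below all 6 at 198 mg/kg-d. From 313 to 427 mg/kg-d none of the 7 passed, against 3.07% of all genes. In that last step 5 of the 7 had an unadjusted p under 0.05, as had 17.5% of all genes, and Nr1d1 was nearest to the threshold with a difference of 0.61 ± 0.17 (FDR-adjusted p = 0.0528). Leaving out any 1 of animals 3, 4, 52, 77, 98 and 100 brought 1 gene past the threshold in that step, as did fitting the 2 groups alone.

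A straight line over the 4 doses was called for 6 of 7 genes, against 32.2% of all genes. The slope per 100 mg/kg-d was 0.78 ± 0.04 for Nr1d1 (FDR-adjusted p = 6.04e-13), 0.52 ± 0.04 for Nr1d2 (FDR-adjusted p = 4.09e-10), 0.44 ± 0.08 for Per3 (FDR-adjusted p = 8.49e-05) and 0.11 ± 0.04 for Cry2 (FDR-adjusted p = 0.0227). It was -0.28 ± 0.06 for Arntl (FDR-adjusted p = 0.000952), -0.19 ± 0.04 for Cry1 (FDR-adjusted p = 0.00135) and 0.04 ± 0.02 for Clock (FDR-adjusted p = 0.253). A Jonckheere permutation test, which uses ranks only, called the same genes except Cry2 (FDR-adjusted p = 0.0789). The slope of Cry2 also missed the threshold without vehicle animal 6 (0.084, FDR-adjusted p = 0.0776) or without animal 102 (0.094, FDR-adjusted p = 0.0541), and with median-ratio scaling (0.074, FDR-adjusted p = 0.129), which left 5 of 7 genes called against 27% of all genes.

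Summed levels of some liver cell markers also differed between vehicle and 427 mg/kg-d in FROZ. The 5 endothelial markers summed to 130 to 149 CPM and 99.9 to 121 CPM, which did not overlap. The ranges of the other lists overlapped. The 4 listed of 5 Kupffer cell markers summed to 50.4 to 80.9 CPM and 42.3 to 59.0 CPM, and their median at 313 mg/kg-d (72.8 CPM) was near that of vehicle (72.3 CPM). The hepatocyte list had medians of 27150 CPM and 22210 CPM, and the cholangiocyte list 43.8 CPM and 34.3 CPM. Medians were higher at 427 mg/kg-d for the stellate cell list (165.9 CPM and 192.7 CPM) and the lymphocyte list (1.22 CPM and 1.30 CPM). Their part in the changes of the clock genes was not tested.

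Thra, which encodes a thyroid hormone receptor, overlaps Nr1d1 on the other strand (chr11:98740638-98769006), and the annotated exons share 263 of the 3077 exonic bases of Nr1d1 (8.55%). Thra ran from 4.52 to 4.94 in vehicle animals and from 4.80 to 5.18 at 427 mg/kg-d, with log2 fold changes of 0.12, -0.01 and 0.27 (FDR-adjusted p = 0.602, 0.961 and 0.0597). It did not pass the test at any dose where Nr1d1 rose up to 9.23-fold.

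Among the animals given 427 mg/kg-d, Per3, Nr1d2 and Cry1 followed the order of Arntl, upward or downward, more closely than Nr1d1 did. Within that group the r of Nr1d1 was -0.17 with Arntl, 0.16 with Per3 and 0.44 with Nr1d2. Ordered by falling Arntl, the animals were 98 (4.29), 99 (3.36), 101 (3.31), 97 (2.69), 102 (2.55) and 100 (1.48). Per3 in the same order of animals was 1.70, 2.09, 3.01, 2.94, 3.64 and 4.12, so it was lowest where Arntl was highest. Nr1d2 was 5.66, 6.11, 6.05, 6.50, 6.34 and 6.59, and Cry1 was 6.00, 4.99, 5.03, 4.82, 4.56 and 4.72. Nr1d1, in contrast, was 4.61, 4.84, 4.71, 5.25, 5.15 and 4.59, with the extreme animals 98 and 100 alike and both far above every vehicle animal.

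Animal 98 thus had Arntl within the vehicle range, Cry1 just above its highest value (6.00 against 5.97), Per3 and Nr1d2 above the vehicle range but lowest of the group, and Nr1d1 at the level of its group. A pair of genes that rose with DCA, chosen after their values were seen, were far above vehicle in this animal. Cyp4a10, a fatty acid hydroxylase, was 11.4 in animal 98 and 10.8 to 11.7 over the group, against 2.37 to 5.68 in vehicle animals. Acot1, an acyl-CoA thioesterase, was lowest of the group in animal 98 at 8.09 (8.09 to 9.51 over the group, 3.04 to 4.12 in vehicle animals). The FROZ libraries of animals 98 and 100 held 8893000 and 8351000 reads, within the range of the group (7513000 to 9259000).

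**Figure D3:**
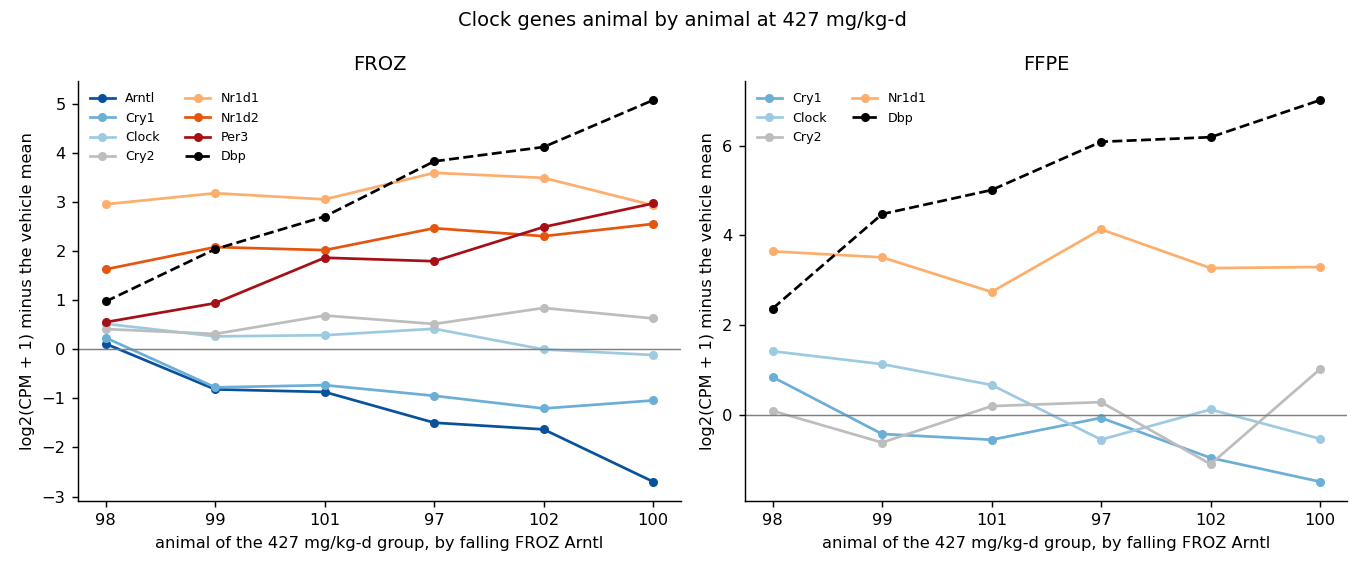
Difference of each animal at 427 mg/kg-d from the vehicle mean, in log2(CPM + 1), for the listed core clock genes and for Dbp (dashed), with animals ordered along the horizontal axis by falling FROZ Arntl in both panels (left FROZ, right FFPE, each with its own vertical scale). Arntl and Per3 diverge from left to right while Nr1d1 stays between 2.94 and 3.60 above vehicle in FROZ, and Dbp climbs in both preservations.

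The spread of Arntl at 427 mg/kg-d was 7.19 times its spread in vehicle animals, a ratio above that of 99.9% of genes, for which the median ratio was 1.00. Per3 had a ratio of 3.31 (above 98.1% of genes) and Clock of 3.21 (above 97.9%), while Cry1 was at 1.92, Nr1d2 at 1.22, Nr1d1 at 0.692 and Cry2 at 0.637. These ratios are given as a description without a test. They are on the log2(CPM + 1) scale, which also understates the spread of low genes. Per3 was at 0.754 to 1.85 CPM in vehicle animals and 2.24 to 16.4 CPM at 427 mg/kg-d, so its ratio depends in part on that scale.

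The relation between the arms across animals was computed on deviations from the dose means, so that the shift with dose itself does not enter. With 2 activators and 5 repressors listed in FROZ there were 10 relations over 24 animals, each tested by 100000 permutations within dose (two-sided) and adjusted over the 10. Arntl and Cry1 went together, with a Pearson r of 0.69 (permutation p = 0.0098, adjusted 0.0889) and a Spearman rho of 0.54 (permutation p = 0.00394, adjusted 0.0394). Without animals 100 and 102, the farthest from the median of Arntl by level over all 24 animals, r was 0.73 (permutation p = 0.0048). Animal 98, the highest of the 427 mg/kg-d group in both genes (Arntl 4.29, Cry1 6.00), was kept, and r without it was not computed. This value therefore does not tell whether the relation holds without the animals farthest from their dose mean.

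Arntl and Per3 gave r = -0.69 (permutation p = 0.0189, adjusted 0.0889) and rho = -0.38 (permutation p = 0.153, adjusted 0.511). Without animals 100 and 102 r was -0.38 (permutation p = 0.261), so it was weaker without them. They were picked by level and not by distance from their dose mean. Animal 98, with the highest Arntl (4.29) and the lowest Per3 (1.70) of the same dose group, was kept. The value therefore does not tell which animals the relation rests on. Arntl and Nr1d2 gave r = -0.46 (permutation p = 0.0267, adjusted 0.0889) and rho = -0.33 (permutation p = 0.147, adjusted 0.511), and r was -0.36 without animals 100 and 102 (permutation p = 0.136).

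No relation was detected between Arntl and Nr1d1 within dose, with r = 0.016 (permutation p = 0.944, adjusted 0.973) and rho = 0.10 (permutation p = 0.655, adjusted 0.894), and r = -0.12 without the 2 animals (permutation p = 0.616). In the remaining relation of Arntl, that with Cry2, r was -0.21 (permutation p = 0.242, adjusted 0.484) and rho -0.23 (permutation p = 0.276, adjusted 0.690). Over the 24 animals, r of Clock with the 5 repressors lay between -0.37 (Per3) and 0.24 (Cry1), and the lowest permutation p was 0.196 (adjusted 0.484). Its rho lay between -0.18 and 0.15, with a lowest permutation p of 0.480 (adjusted 0.853). In no relation but Arntl and Cry1, and there only by rank, did the adjusted p fall under 0.05.

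Dose by dose, with 6 animals each and as a description, the opposition was seen at 427 mg/kg-d. There Arntl had r = -0.93 with Per3 and -0.94 with Nr1d2, 0.82 with Cry1 and 0.84 with Clock, but -0.17 with Nr1d1. In vehicle animals, where Arntl spanned only 3.98 to 4.35, the r of Arntl was -0.0043 with Per3, -0.66 with Nr1d2 and 0.82 with Nr1d1. At 198 and 313 mg/kg-d the r with Per3 was -0.04 and 0.17, that with Nr1d2 -0.19 and 0.43, and that with Nr1d1 0.50 and -0.32. The r with Cry1 was 0.32, 0.11 and 0.695 at 0, 198 and 313 mg/kg-d. With Clock it was -0.48, -0.44 and -0.22 at these doses, opposite in sign to its value at 427 mg/kg-d. Over the 24 animals within dose, Arntl and Clock had r = 0.47 and rho = 0.084, given without a test. The libraries of a dose were measured on the same platform and scaled together, and the points of each r share their libraries.

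**Figure D4:**
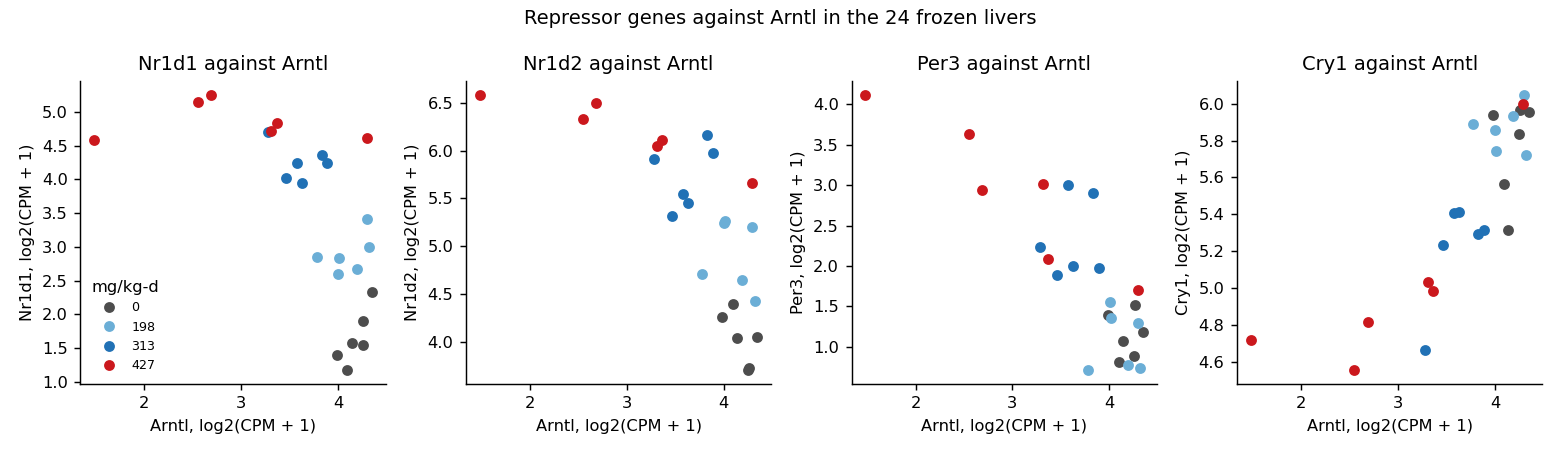
Level of Nr1d1, Nr1d2, Per3 and Cry1 (vertical axes) against the level of Arntl (horizontal axes) in the 24 frozen livers, all in log2(CPM + 1), with 1 point per animal colored by dose in mg/kg-d. Nr1d1 lies higher at each dose in bands that are separate up to 313 mg/kg-d, and among the animals at 427 mg/kg-d Nr1d1 does not follow Arntl (r = -0.17) where Per3 (r = -0.93) and Nr1d2 (r = -0.94) fall as Arntl rises.

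Per animal, the difference of Nr1d1 minus Arntl, both in log2(CPM + 1), ordered the dose groups with no overlap up to 313 mg/kg-d. It ran from -2.92 to -2.02 in vehicle animals, -1.51 to -0.88 at 198 mg/kg-d, 0.31 to 1.42 at 313 mg/kg-d and 0.32 to 3.11 at 427 mg/kg-d. The last group began at animal 98 and ended at animal 100. The difference is between probes and has no meaning as a ratio of the 2 transcripts.

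Genes most like Arntl across animals were named by r of the deviations from dose means among 5873 genes averaging 10 CPM or more over the libraries, as a description. The highest were Chka (choline kinase, r = 0.91), Lgalsl (0.80), Mpzl1 (0.79), Clpx (a mitochondrial protease subunit, 0.78) and Ppard (a fatty-acid-sensing nuclear receptor, 0.72), and Cry1 was 8th. The lowest were Dbp (-0.80), Bhlhe40 (-0.64), Slc20a1 (a phosphate transporter, -0.63), Mmp15 (a membrane metalloprotease, -0.62) and Serpina1e (a serine protease inhibitor, -0.60), and Nr1d2 was 26th from the lowest end. At 427 mg/kg-d alone r was 0.87 to 0.99 for the 5 highest and -0.98 to -0.72 for the 5 lowest, and at other doses some had r of the other sign, such as Clpx in vehicle animals (-0.76) and Ppard at 198 mg/kg-d (-0.77). Dbp had r of 0.097 and -0.090 at 198 and 313 mg/kg-d.

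The wider clock list holds 18 genes that act beside the core (ROR receptors, the Bhlhe repressors, D-box factors, and the kinases and ligase subunits that set the life of PER and CRY), and FROZ lists 17. Of these, 1 changed at 198 mg/kg-d (a decrease), 7 at 313 mg/kg-d (5 rose and 2 fell) and 9 at 427 mg/kg-d (8 rose and 1 fell), where 1.56%, 26.7% and 30.1% of all genes changed, and the medians of the list were 0.01, 0.09 and 0.29. Bhlhe40, which competes at E-boxes, fell by 1.49 ± 0.24 on the log2 scale at 198 mg/kg-d (FDR-adjusted p = 0.00137) with all 6 animals below vehicle (5.90 to 6.38 against 6.92 to 8.30), and at the higher doses its ranges of 7.02 to 7.90 and 6.29 to 8.02 overlapped vehicle. Its relative Bhlhe41 rose by 1.05 ± 0.33 at 313 mg/kg-d (FDR-adjusted p = 0.0189) and 1.44 ± 0.33 at 427 mg/kg-d (FDR-adjusted p = 0.00142).

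Ciart, a repressor of the CLOCK-ARNTL pair, rose by 1.40 ± 0.33 at 427 mg/kg-d (FDR-adjusted p = 0.00163), with 0.449 to 12.2 CPM against 0 to 1.26 CPM in vehicle animals. Nfil3, which represses at D-boxes, fell by 1.44 ± 0.20 on the log2 scale at 427 mg/kg-d (FDR-adjusted p = 3.94e-06) with all 6 animals below vehicle. Dbp, which activates at D-boxes, had levels of 3.03 to 3.84 in vehicle animals, 4.33 to 6.33 at 313 mg/kg-d and 4.38 to 8.49 at 427 mg/kg-d, and rose by 1.95 ± 0.44 (FDR-adjusted p = 0.00176) and 3.13 ± 0.44 (FDR-adjusted p = 4.48e-06). At 427 mg/kg-d the order of Dbp across animals was the exact reverse of that of Arntl (r = -0.98).

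FFPE lists Clock, Cry1, Cry2 and Nr1d1. At 427 mg/kg-d 1 of 4 changed, at 198 and 313 mg/kg-d none did, and the line over dose was called for 1 of 4, where 2.41%, 0.0599%, 1.08% and 2.17% of all genes passed, in that order. The gene was Nr1d1 in both cases. At an unadjusted p under 0.05 there was 1 gene at 198 mg/kg-d (Cry1) and there were 2 at 313 mg/kg-d (Nr1d1 and Clock), against 11.8% and 11.7% of all genes. The FFPE level of Nr1d1 ran from 0.24 to 4.54 in vehicle animals (median 3.52), from 0 to 6.35 at 198 mg/kg-d (median 4.38), from 5.43 to 6.63 at 313 mg/kg-d (median 6.01) and from 5.89 to 7.29 at 427 mg/kg-d (median 6.55). All 6 animals lay above all vehicle animals at 313 and at 427 mg/kg-d, where 1.57% and 4.48% of all genes had no overlap with vehicle in either direction.

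The FFPE log2 fold change of Nr1d1 was 2.84 ± 0.84 at 313 mg/kg-d (FDR-adjusted p = 0.111) and 3.43 ± 0.84 at 427 mg/kg-d (FDR-adjusted p = 0.0179), and the slope per 100 mg/kg-d was 0.88 ± 0.20 (FDR-adjusted p = 0.00849). At 198 mg/kg-d it was 0.24 ± 0.84 (FDR-adjusted p = 0.927). Vehicle animal 6, listed at 0.24 from a single read, was far below the other vehicle animals (3.34 to 4.54). Without it the change at 427 mg/kg-d was 2.84 and did not pass (FDR-adjusted p = 0.0648), and neither did the 3.29 without animal 97 (FDR-adjusted p = 0.0566). With an offset of 0.1 CPM the call at 427 mg/kg-d was lost (FDR-adjusted p = 0.136), as was that of the slope (FDR-adjusted p = 0.0755, and 0.559 with an offset of 0.0001 CPM). The 4 hepatocyte markers listed in FFPE summed to 37670 to 51550 CPM in vehicle libraries and to 25760 to 31130 CPM at 427 mg/kg-d, and their part in this result was not tested. At 313 mg/kg-d Nr1d1 passed without animal 49 (FDR-adjusted p = 0.0449) or without animal 53 (FDR-adjusted p = 0.0492), both of the 198 mg/kg-d group.

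Clock, Cry1 and Cry2 were not called in FFPE at any dose. Clock was listed at 0 in 3 of 6 libraries at 198 mg/kg-d (animals 49, 52 and 53) and in 4 of 6 at 313 mg/kg-d (animals 73 to 76), and in no library of the vehicle or 427 mg/kg-d groups. Cry1 was listed at 0 in the same 3 libraries at 198 mg/kg-d and in 2 at 313 mg/kg-d (animals 75 and 76). The 3 libraries at 198 mg/kg-d had 1828000, 2807000 and 3953000 reads and 1582, 1157 and 962 genes listed at 0. The 4 at 313 mg/kg-d had 3097000, 4638000, 3477000 and 3961000 reads and 1442, 378, 901 and 413 such genes in the order of animals 73 to 76. Vehicle libraries had 4540000 to 5809000 reads and 132 to 792 such genes, so animal 74 lay within the vehicle range on both measures while Clock was listed at 0 there. A listed 0 allows up to 1.64 CPM in the shallowest FFPE library (3 reads, counting error only). Between 427 mg/kg-d and vehicle the ranges of Clock were 3.11 to 5.08 and 2.79 to 4.35, those of Cry1 3.48 to 5.81 and 3.49 to 6.16, and those of Cry2 3.82 to 5.95 and 3.95 to 5.40.

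No gene of the 4 changed between neighboring doses in FFPE, against 1.06% of all genes for 313 vs 198 mg/kg-d and 0.375% for 427 vs 313 mg/kg-d. At an unadjusted p under 0.05 there was 1 gene in each step, Nr1d1 in the first and Clock in the second, against 12.5% and 9.73% of all genes. The FFPE estimates were wide: the 95% interval at 427 mg/kg-d was -2.68 to 1.78 for Cry1 and -1.78 to 1.72 for Cry2, which covers the FROZ changes of both. The response in FFPE minus that in FROZ, tested within the animal, passed for 0 of 4 genes at 198, 313 and 427 mg/kg-d, against 0.0303%, 0% and 0.0303% of 6591 shared genes. By unadjusted p under 0.05 the genes were Cry1 at 198 mg/kg-d and Clock at 313 mg/kg-d, both lower in FFPE and both in groups with libraries listed at 0, where 11.4% and 7.39% of all genes were under that limit. For Nr1d1 the difference was -1.004 ± 0.83, 0.24 ± 0.83 and 0.22 ± 0.83, with an interval of -1.50 to 1.95 at 427 mg/kg-d.

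**Figure D5:**
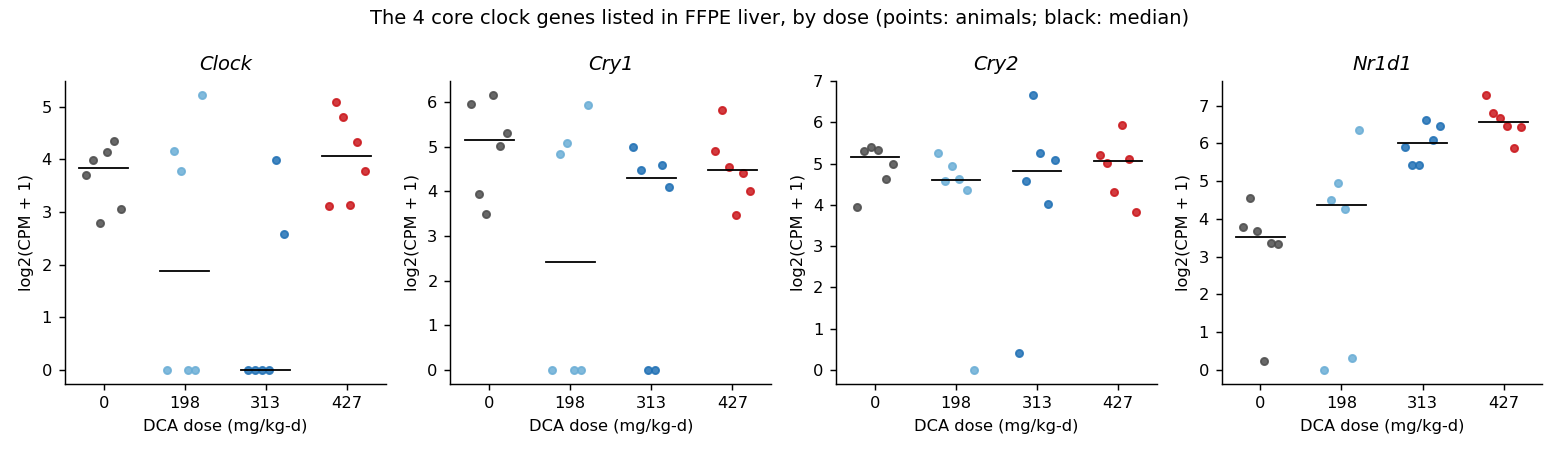
Level of the 4 core clock genes listed in FFPE liver, as log2(CPM + 1) against dose in mg/kg-d, with 1 point per animal and the median as a black line. Nr1d1 lies above vehicle in all 6 animals at 313 and 427 mg/kg-d, and the points at 0 for Clock and Cry1 fall in the 198 and 313 mg/kg-d groups.

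Whether an animal deviated in the same way in both preservations was asked for the 4 shared genes on deviations from dose means. Pearson r was 0.36 for Clock (permutation p = 0.0908, adjusted over 4 relations 0.363), 0.22 for Nr1d1 (permutation p = 0.371, adjusted 0.742), -0.05 for Cry1 (permutation p = 0.784, adjusted 0.933) and -0.02 for Cry2 (permutation p = 0.933, adjusted 0.933). The corresponding rho values were 0.30, 0.31, -0.14 and 0.03, with adjusted permutation p of 0.366, 0.366, 0.603 and 0.893. Without the 2 animals farthest from the median of each gene in FROZ, r was 0.28, 0.37, 0.01 and 0.06. In the vehicle and 427 mg/kg-d groups no library was listed at 0 for these genes. There r over the 6 animals, given as a description, was 0.15 and 0.53 for Clock, 0.045 and 0.48 for Nr1d1, 0.025 and 0.85 for Cry1, and -0.59 and -0.12 for Cry2, each with the vehicle value first.

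Dbp, the gene with the lowest r with Arntl in FROZ, kept the order of the 427 mg/kg-d animals in FFPE. Its FFPE levels in animals 98, 99, 101, 97, 102 and 100 were 5.27, 7.38, 7.92, 8.99, 9.09 and 9.92, and r with FROZ was 0.98 over the 6 animals and 0.56 over all 24 within dose. Of the wider clock list FFPE holds 11 genes, of which none changed at 198 mg/kg-d (limma, 3 at an unadjusted p under 0.05, as did 11.8% of all genes) and 1 at each higher dose (1.08% and 2.41% of all genes), in both cases Dbp, which rose by 4.02 ± 0.81 (FDR-adjusted p = 0.00418) and 5.19 ± 0.81 (FDR-adjusted p = 6.79e-05). Nfil3, which fell in FROZ, had FFPE log2 fold changes of 2.26, 0.86 and 0.06 at 198, 313 and 427 mg/kg-d, each ± 1.04 and none called. It was listed at 0 in 2 of 6 libraries in each of the vehicle, 313 and 427 mg/kg-d groups. Bhlhe40 at 198 mg/kg-d was -1.42 ± 0.51 in FFPE (FDR-adjusted p = 0.287).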

How the data were processed

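TempO-Seq was run on 48 libraries, a FROZ and an FFPE library from each of 24 mice. Per the labels and the methods of the study, the authors aligned reads to mm10 with STAR (version 2.6 in the processing notes) in Partek Flow and counted them per gene by expectation maximization. They removed low genes and deposited log2(CPM + 1), scaled within each table, so levels were compared only within a table. The libraries hold 6687000 to 9833000 reads in FROZ and 1828000 to 6026000 in FFPE, worked out from the CPM of 1 read. Values of up to 20 reads were whole within 0.05 reads in 96.2% to 97.1% (FROZ) and 82.7% to 95.0% (FFPE) of cases, so no count model was used. Abundant probes were attenuated in the assay, none of them for the core clock genes. Gene positions are from GENCODE and promoter windows from RefSeq on GRCm38.

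All genes of a table were fitted with limma 3.58.1 in R 4.3.3 (trended prior, dose as a factor, 4 groups sharing 1 spread), in place of the study's test, with Benjamini-Hochberg adjustment (FDR). A call needs an FDR-adjusted p under 0.05. The script was tested on simulated data. Relations used 100000 permutations within dose. The planned family of activator and repressor relations included genes that are not listed, which left 10. Named genes are all members, and clock list genes called with a fold change above 2. The members and lists were chosen with earlier results of these data known. A hepatocyte marker of the list is not reported here and was left out of its sum.

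FROZ and FFPE libraries with the same number come from the same mouse per the labels, so their difference was taken within the animal. As a check of this pairing, deviations from dose means over 6588 genes had a correlation of -0.00452 to 0.196 (median 0.0988) between libraries of an animal and a median of -0.0186 between animals, and 22 of 24 animals were closest to their own number.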

Additional observations from a re-analysis of the deposited data

Results flagged for a closer look

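In 4 of 44 groups of 6 libraries, 1 animal stood far from the others of its dose for a core clock gene. The rule gives about 1 in 20 by chance for independent, normally distributed values. That rate need not hold here, since some FFPE groups hold libraries listed at 0 and the groups share animals. Cry1 in FROZ at 313 mg/kg-d was 4.66 in animal 77, below the other animals (5.23 to 5.41). Cry1 in FROZ at 427 mg/kg-d was 6.00 in animal 98, above the other animals (4.56 to 5.03), and the same animal had the highest Arntl (4.29) and the lowest Per3 (1.70) of its group. Cry2 in FFPE at 198 mg/kg-d was listed at 0 in animal 54, where the other animals had 4.36 to 5.25 and where that library had 2780000 reads and 1002 genes at 0. Nr1d1 in FFPE was 0.24 in vehicle animal 6, where the other vehicle animals had 3.34 to 4.54 and where that library had 5510000 reads and 132 genes at 0.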

How the results depend on the processing

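Of 508 recomputed values of the main results, 486 were taken as unchanged. Most were counts of members called, where a change by a small factor was also taken as unchanged. Leaving out single animals moved such FROZ counts from 4 to between 3 and 5 at 313 vs 0 mg/kg-d. They went from 6 to between 6 and 7 at 427 vs 0 mg/kg-d and from 6 to between 5 and 6 for the linear trend. Of 1685 values for single genes, 1635 kept their direction and their side of the threshold. For FROZ at 427 vs 313 mg/kg-d, the count of members called went from 0 to 1 with only genes averaging at least 5 CPM and with only the 2 groups fitted, and from 0 to 1 on leaving out single animals (1 without animal 3, 4, 52, 77, 98 or 100). In FFPE at 313 vs 0 mg/kg-d it went from 0 to 1 with array quality weights, and from 0 to 1 on leaving out single animals (1 without animal 49 or 53). In FFPE at 427 vs 0 mg/kg-d it went from 1 to 0 with offsets of 0.1 and 0.0001 CPM, as did the linear trend in FFPE, and from 1 to 0 on leaving out single animals (0 without animal 6 or 97). The causes were not tested. The relation of Arntl and Nr1d1 was -0.029 with median-ratio scaling and ran from -0.19 (without animal 100) to 0.19 (without animal 98).

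Values that turned sign were none of them called. With median-ratio scaling Clock at 198 mg/kg-d was -0.049 and Cry2 at 313 mg/kg-d was -0.010 in FROZ. In FFPE, Nr1d1 at 198 mg/kg-d was -0.22 with an offset of 0.1 CPM and -1.84 with 0.0001 CPM, and the slope of Clock was 0.041 with array weights and that of Cry2 0.037 with 0.0001 CPM. Leaving out single animals gave ranges in FROZ of -0.17 to 0.000526 for Per3 at 198 mg/kg-d and -0.11 to 0.0084 for Clock at 313 mg/kg-d. In FFPE they were -0.35 to 0.92 for Nr1d1 at 198 mg/kg-d, -1.07 to 0.19 for Cry2 at 313 mg/kg-d, -0.24 to 0.19 for Cry2 at 427 mg/kg-d and -0.069 to 0.040 for the slope of Cry2. For the FFPE response minus the FROZ response they were -1.23 to 0.081 for Cry2 and -0.32 to 0.61 for Nr1d1 at 313 mg/kg-d, and -0.018 to 0.36 for Clock, -0.045 to 0.52 for Cry1 and -0.34 to 0.59 for Nr1d1 at 427 mg/kg-d.

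Without the pairing (no replicate block), 0 members were called in the FFPE minus FROZ response at each dose, the count with the block, and no other call changed with it. Few reads lie behind Per3 in FROZ (6.01 to 17.0 per vehicle library), and in FFPE a listed 0 allows up to 1.64 CPM in the shallowest library.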
